A study of Mus musculus with 6 samples.

Results

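Prostaglandin synthesis and receptor genes were followed in mouse dermal fibroblasts that had been exposed to the DNA methylation inhibitor 5-aza-2'-deoxycytidine. The set was every probe set carrying, as its single gene symbol, 1 of 10 names: Ptgs1, Ptgs2, Ptges, Ptges2, Ptges3, Ptgis, Ptgds, Hpgd, Ptger2 and Ptger4. It held 14 probe sets for 8 of these genes, out of 18193 genes with such a probe set on the array. Ptgs1 was not analysed here, and Ptges3 shared both of its probe sets with a pseudogene symbol and is not reported. The genes were selected on the differences in signal between the 3 groups on these same arrays, so those differences are given as a description and nothing is concluded from how many of the genes differed.

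Total RNA of 6 samples was hybridised to Affymetrix mouse 430 2.0 arrays, 2 per group. All cells were passage 4 explant cultures of the dermis of newborn mice (0 to 2 days old), from wild-type BL6 mothers crossed with males of mixed 129/ICR background that carried an X-linked GFP transgene under a chicken β-actin promoter and CMV enhancer. All were first sorted for absence of GFP, which in cells of females stands for a transgene on the inactive X. GFP-positive cells were treated with 4 μM of the drug for 48 hours, left for 24 hours and sorted for a GFP signal that had come on. GFP-negative cells had the same treatment and were collected in the same sort as the fraction that stayed dark. Control cells were left untreated over the same times and were not sorted again, so the drug and the further sort cannot be told apart. The free-text description of the treated samples places the word untreated before the drug and its dose, while their titles, sources and treatment entries name the drug, and they were read as treated. All samples are labelled B6 and female, except control replicate 2, which is labelled as of mixed sex. Sons do not inherit the X of their fathers, so in that control absence of GFP need not mean a silent transgene.

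Prostaglandins are lipid signals made from arachidonic acid. Phospholipases release it from membranes, a cyclooxygenase (encoded by Ptgs1 or Ptgs2) turns it into an unstable intermediate, and a terminal synthase then sets which prostaglandin is made. The product leaves the cell, acts on G protein-coupled receptors nearby and is taken up and oxidised. In dermal fibroblasts Ptgs2 is the inducible enzyme, which growth factors, cytokines and stress switch on, and prostaglandin E is a main product.

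Since the drug lowers methylation of cytosine in CG dinucleotides, promoters are shown for the cyclooxygenase gene Ptgs2, for Ptges, the synthase that acts after it, and for the receptor gene Ptger4. Ptgs2 and Ptger4 stand for a higher and a lower signal in GFP-positive cells. Each stretch runs from 250 bases before to 30 bases after the annotated start, on the gene's own strand (RefSeq, GRCm38.p6), with every CG in capitals. The Ptgs2 stretch lies at chr1:150099781-150100060 on the plus strand, that of Ptges at chr2:30903268-30903547 on the minus strand and that of Ptger4 at chr15:5244158-5244437 on the minus strand.
Ptgs2: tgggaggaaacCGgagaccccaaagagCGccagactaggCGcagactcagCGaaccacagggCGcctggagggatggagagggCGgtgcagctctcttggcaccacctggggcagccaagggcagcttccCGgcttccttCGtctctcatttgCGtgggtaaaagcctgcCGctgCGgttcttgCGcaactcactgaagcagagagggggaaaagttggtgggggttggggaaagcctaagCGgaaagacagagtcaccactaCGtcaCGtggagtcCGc
Ptges: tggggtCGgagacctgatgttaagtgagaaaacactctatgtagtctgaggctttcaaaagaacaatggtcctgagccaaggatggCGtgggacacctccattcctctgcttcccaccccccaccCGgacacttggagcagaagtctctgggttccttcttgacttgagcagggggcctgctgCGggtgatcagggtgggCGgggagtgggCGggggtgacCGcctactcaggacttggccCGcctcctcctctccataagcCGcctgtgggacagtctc
Ptger4: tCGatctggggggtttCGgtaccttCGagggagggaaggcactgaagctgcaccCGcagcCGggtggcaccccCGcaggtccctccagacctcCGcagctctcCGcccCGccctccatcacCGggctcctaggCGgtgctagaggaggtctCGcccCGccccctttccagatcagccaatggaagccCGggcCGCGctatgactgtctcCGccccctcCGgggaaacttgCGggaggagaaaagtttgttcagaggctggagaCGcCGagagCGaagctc

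The Ptgs2 stretch held 16 CG dinucleotides, that of Ptges 9 and that of Ptger4 22, against a median of 6 over 32851 mouse promoters of the same length, some genes having several. The table held promoters for 9 of the 10 genes, all but Ptgis. CG counts of the others were 42 for Ptges3, 16 for Ptges2, 11 for Hpgd, 5 for Ptgs1, 3 for Ptger2 and 2 for Ptgds. These counts therefore spread from the poor to the rich end of all promoters. Methylation itself was not measured on these arrays. Motifs were searched on both strands. The core of the cAMP response element, CGTCA, matched in Ptgs2, at bases 14 to 18 from the start, and in Ptges3, and is held by 19.9% of all promoters. The E-box, CACGTG, matched in Ptgs2 at bases 17 to 22, overlapping that core, and in Ptges2, and 6.79% of all promoters hold it. Matches to the GC box, GGGCGG, numbered 4 each in Ptger4 and Ptges3, 2 in Ptges and 1 each in Ptgs2 and Hpgd, and it is held by 34.7% of all promoters. The TATA box was searched as TATAAA and matched, among the 9 genes, in Hpgd, downstream of the start. It is held by 13.1% of all promoters. The motifs were chosen after the sequences had been read, and a match in these letters says nothing on whether a factor binds.

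**Figure D1:**
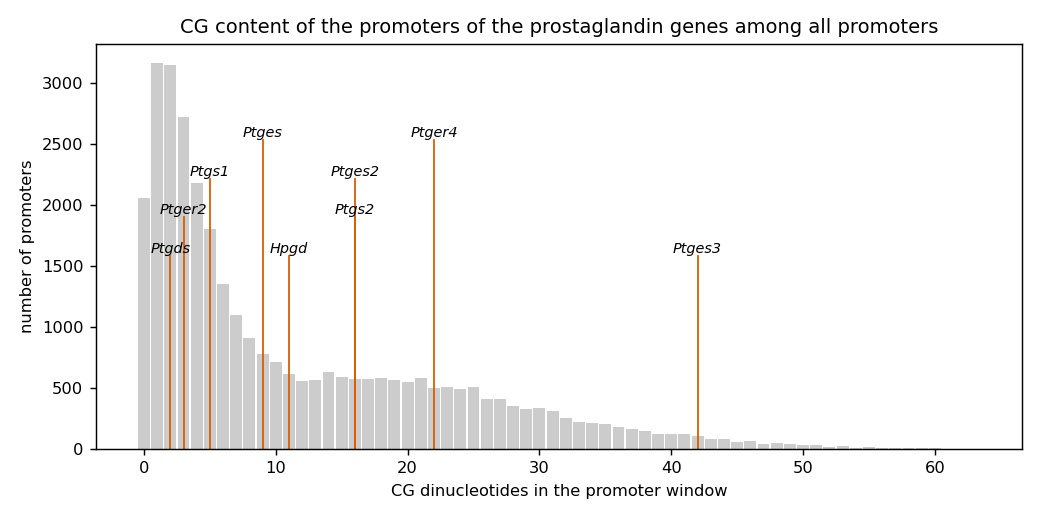
Number of CG dinucleotides (horizontal axis) in 280-base promoter windows of 32851 mouse promoters (grey bars, number of promoters) with orange lines at the 9 prostaglandin genes that have an entry. Ptgds, Ptger2 and Ptgs1 lie below the median of 6, Ptges3 lies far to the right at 42, and Ptgs2 and Ptges2 share a line at 16.

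Signals are linear and were scaled so that every array had the same 2% trimmed mean of 500. Differences are log2 differences of signal plus an offset of 30.64, with their standard error (SE) from limma over all 6 arrays, and the offset understates changes of dim probe sets. Arrays numbered 1 and arrays numbered 2 differed in every group, with a lower quartile of the scaled signal of 38.7 to 42.6 against 19.2 to 22.6, so the differences within each replicate number are given beside the pooled ones. Replicate 2 of both treated groups had been deposited on a lower scale, with trimmed means of 50.5 and 62.0. Of 10 fibroblast markers all 10 were bright enough to be tested, and their summed signal was 154355 to 155520 in GFP-positive, 155911 to 165531 in GFP-negative and 186733 to 196096 in control cells. That sum is carried by very bright genes such as Vim and Col1a2, and the bright genes did not move alike. In GFP-positive and GFP-negative cells Col3a1 was at -0.93 and -0.74 from control and Col1a1 at -0.76 and -0.24. Vim was at 0.18 and 0.055. The 4 dimmest of the 10 differed more, and had lower means in both treated groups. Dcn, a matrix proteoglycan, read 1496 and 202.9 in GFP-positive, 2720.4 and 333.8 in GFP-negative, and 12516 and 2957 in control cells, at -3.36 ± 1.15 and -2.61 ± 1.15 from control. Fap, a surface protease, was at -2.02 ± 0.47 and -1.33 ± 0.47, Pdgfra, a growth factor receptor, at -1.54 and -1.30, and Dpt, a matrix protein, at -1.50 and -1.10. Arrays overlapped with control arrays for Dpt in both treated groups and for Pdgfra in GFP-negative cells. Within each replicate number all 4 were below control in both treated groups. Dcn was at -3.04 and -3.68 in GFP-positive and at -2.19 and -3.035 in GFP-negative cells. Dpt was at -1.56 and -1.45, and at -1.27 and -0.92. With the replicate number as a block the SE was 0.20 for Dcn and 0.19 for Dpt. The part of these marker differences in the results below was not tested. A lower signal in such bulk RNA cannot tell fewer cells that make a transcript from less transcript per cell. The labels call the replicates biological without saying whether they came from separate animals, and their number limits the precision of every value.

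Ptgs2, the inducible cyclooxygenase, had the largest difference among the prostaglandin genes at their brightest probe sets. Its brighter probe set read 7931 and 8965 in GFP-positive cells (replicates 1 and 2), 12432 and 9686 in GFP-negative cells, and 1949.9 and 3252 in control cells. All 4 treated arrays were above both control arrays. The log2 difference was 1.73 ± 0.28 (SE) for GFP-positive against control cells, 2.01 within replicate 1 and 1.45 within replicate 2. For GFP-negative against control cells it was 2.11 ± 0.28, 2.65 within replicate 1 and 1.57 within replicate 2. On the scale of signal plus offset these are 3.32-fold and 4.32-fold.

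The second Ptgs2 probe set went the same way in all 4 comparisons within a replicate number. It read 3318 and 5480 in GFP-positive, 3558 and 7768 in GFP-negative, and 913.6 and 2505 in control cells. Again no treated array reached down to a control array. Its log2 differences from control were 1.47 ± 0.53 in GFP-positive cells (1.83 and 1.12 within the replicates) and 1.77 ± 0.53 in GFP-negative cells (1.93 and 1.62). The order of the Ptgs2 groups was thus GFP-negative, GFP-positive, control on both probe sets. The upper 2 differed by less than 2 SE, with GFP-positive minus GFP-negative at -0.38 ± 0.28 on the brighter probe set (-0.65 and -0.11) and -0.30 ± 0.53 on the other (-0.10 and -0.50), where their arrays overlapped.

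**Figure D2:**
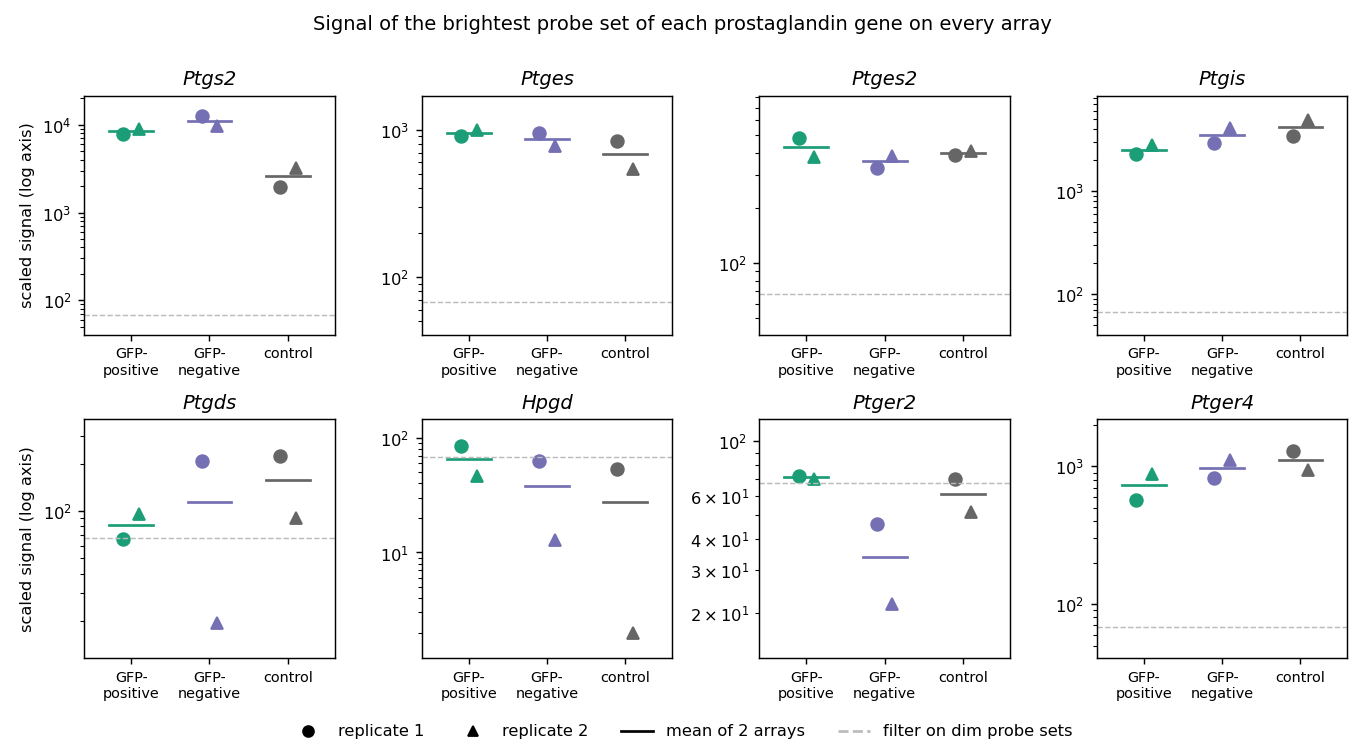
Scaled signal (log axis, a scale of its own in each panel) of the brightest probe set of 8 prostaglandin genes on every array, by group, with circles for replicate 1, triangles for replicate 2, bars for the mean of 2 arrays and a dashed line at the filter of 67.71. Ptgs2 lies between 7931 and 12432 in treated and between 1949.9 and 3252 in control cells, while Hpgd and Ptger2 lie around or below the filter.

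Markers of other cells the cultures could hold were read beside Ptgs2, since leukocytes also express it. The summed signal of 9 leukocyte markers was 1414 to 1577 in GFP-positive, 1289 to 1818 in GFP-negative and 850 to 1193 in control cells, so it was higher in treated cells too. Of these 9 markers 5 were bright enough to be tested. Ptprc, the pan-leukocyte surface phosphatase, was not among them, at 59.6 and 55.4 in GFP-positive, 45.8 and 42.7 in GFP-negative and 60.1 and 4.9 in control cells. Cd68, a lysosomal protein of macrophages, was higher on all 4 treated arrays, at 169.1 and 202.9 in GFP-positive, 184.9 and 148.3 in GFP-negative and 84.1 and 30.5 in control cells. So was Csf1r, a macrophage growth factor receptor, at 585.7 and 829.2 in GFP-positive, 821.4 and 794.9 in GFP-negative and 545.6 and 538.7 in control cells. Laptm5 and Fcer1g were also tested and had higher means in both treated groups. Laptm5 had means of 193.8 in GFP-positive, 207.9 in GFP-negative and 107.6 in control cells, and Fcer1g of 100.1, 82.4 and 29.9. For both genes GFP-positive arrays lay above both controls, and GFP-negative arrays overlapped with them. Other markers of the list did not all follow. Adgre1 was tested and had means of 113.6 in GFP-positive, 115.5 in GFP-negative and 114.7 in control cells. In the same order Tyrobp had means of 31.9, 28.8 and 39, and Itgam of 41.6, 58.5 and 70.7. Both were too dim to be tested, as was Cd3e, which was higher on all 4 treated arrays. Summed keratinocyte markers were 927 to 1037 in GFP-positive, 818 to 1268 in GFP-negative and 803 to 840 in control cells. Mast cell, endothelial and melanocyte markers summed to 387 to 847, 316 to 643 and 650 to 978 in GFP-positive cells, to 388 to 453, 348 to 606 and 627 to 1050 in GFP-negative cells, and to 215 to 609, 614 to 645 and 670 to 884 in control cells. No marker of any list was at 0 on an array. The part of other cell types in the Ptgs2 signal was not tested.

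Terminal synthases differed less. Ptges encodes the inducible membrane-bound prostaglandin E synthase that often works beside the product of Ptgs2. Its brightest probe set read 903.4 and 994.5 in GFP-positive, 943.7 and 778 in GFP-negative, and 836.7 and 537.9 in control cells. GFP-positive arrays lay above both controls, and GFP-negative arrays overlapped with them. Against control the log2 difference was 0.48 ± 0.28 for GFP-positive cells (0.11 in replicate 1 and 0.85 in replicate 2) and 0.34 ± 0.28 for GFP-negative cells (0.17 and 0.51). Without control replicate 2, the lower control, these were 0.17 and 0.03, and without control replicate 1 they were 0.78 and 0.64.

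The other Ptges probe sets did not settle the size. One read 254.6 and 224.6 in GFP-positive, 176.6 and 285.4 in GFP-negative, and 174 and 38.7 in control cells, a log2 difference of 1.18 ± 0.56 and 1.10 ± 0.56 from control. Replicate 2 held most of it, with 1.88 and 2.19 there and 0.48 and 0.02 within replicate 1. The third read 166.5 and 156.3 in GFP-positive, 91.6 and 128.2 in GFP-negative, and 216.4 and 77.8 in control cells, with opposite signs in the 2 replicate numbers for both treated groups. Pooled, its differences were 0.23 ± 0.52 and -0.23 ± 0.52.

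Ptges2, which encodes a second membrane-associated prostaglandin E synthase, read 478.1 and 378 in GFP-positive, 331.4 and 384.6 in GFP-negative, and 389.1 and 408.9 in control cells. Its difference from control was 0.09 ± 0.28 in GFP-positive cells, or -0.07 without GFP-positive replicate 1, and -0.15 ± 0.28 in GFP-negative cells. Both were smaller than their SE.

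Ptgis, the prostacyclin synthase, was lower in GFP-positive cells on its single probe set. It read 2295 and 2800.3 in GFP-positive, 2941 and 4143 in GFP-negative, and 3427 and 4949 in control cells. GFP-positive arrays lay below both controls and also below both GFP-negative arrays, which overlapped with controls. The log2 difference of GFP-positive against control cells was -0.69 ± 0.28 (-0.57 and -0.82 within the replicates), or -0.43 without control replicate 2. Against GFP-negative cells it was -0.46 ± 0.28 (-0.35 and -0.56). GFP-negative cells were at -0.24 ± 0.28 from control (-0.22 and -0.26), or at 0.03 without control replicate 2 and 0.01 without GFP-negative replicate 1. Within each replicate number Ptgis thus ran GFP-positive, GFP-negative, control from low to high. With the replicate block the SE was 0.14. GFP-positive and GFP-negative cells lay more than 3 SE apart with the block and less than 2 SE without it. Even with the block neither Ptgis nor any other tested probe set passed an adjusted p of 0.05 in that comparison. GFP-negative and control cells lay less than 2 SE apart in both fits.

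Ptgds, the lipocalin-type prostaglandin D synthase, was dim and its probe sets disagreed. The brighter read 66.4 and 96 in GFP-positive, 207.9 and 19.3 in GFP-negative, and 225.9 and 91 in control cells, so all groups overlapped. Its differences from control were -0.67 ± 0.80 and -0.69 ± 0.80 in GFP-positive and GFP-negative cells, the second of which was 0.43 without GFP-negative replicate 2. Without control replicate 1 they were -0.13 and -0.16. The other probe set, whose mean of 68.75 was barely above the filter of 67.71, read 85 and 96 in GFP-positive, 84 and 53.2 in GFP-negative, and 82.2 and 12.1 in control cells, at 0.80 ± 0.72 and 0.50 ± 0.72. These 2 probe sets had the same sign in 1 of 4 comparisons within a replicate number.

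Hpgd encodes the dehydrogenase that inactivates prostaglandins, and neither of its probe sets was bright enough to be tested. The brighter read 85.1 and 46.5 in GFP-positive, 62.5 and 12.9 in GFP-negative, and 53.6 and 2 in control cells. The other stayed at or below 30.6 on all 6 arrays. No difference of Hpgd could be read at these signals.

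Ptger2 and Ptger4 encode the prostaglandin E receptors that couple to stimulatory G protein and raise cAMP. The Ptger2 probe set was under the filter, at 72.3 and 70.3 in GFP-positive, 45.9 and 21.8 in GFP-negative, and 70.1 and 51.5 in control cells. GFP-negative arrays were below all others, at levels where the offset of 30.64 weighs heavily.

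Ptger4 was brighter and was lower in GFP-positive cells on both of its probe sets. The brighter read 569.4 and 885.6 in GFP-positive, 828.1 and 1113 in GFP-negative, and 1291 and 948.5 in control cells. GFP-positive arrays lay below both controls and GFP-negative arrays overlapped with them. The log2 difference was -0.62 ± 0.31 for GFP-positive against control cells, with -1.14 within replicate 1 but -0.10 within replicate 2. Without GFP-positive replicate 1 it was -0.31, and without control replicate 1 it was -0.40. For GFP-negative against control cells it was -0.20 ± 0.31, or 0.02 without control replicate 1 and 0.01 without GFP-negative replicate 1, with opposite signs within the replicates (-0.62 and 0.22).

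The second Ptger4 probe set was steadier. It read 126 and 99 in GFP-positive, 168.3 and 145.9 in GFP-negative, and 227.4 and 161.4 in control cells, at -0.64 ± 0.41 (-0.72 and -0.57) and -0.25 ± 0.41 (-0.38 and -0.12) from control. GFP-positive minus GFP-negative was -0.42 ± 0.31 on the brighter and -0.40 ± 0.41 on this probe set, negative within both replicate numbers on both.

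**Figure D3:**
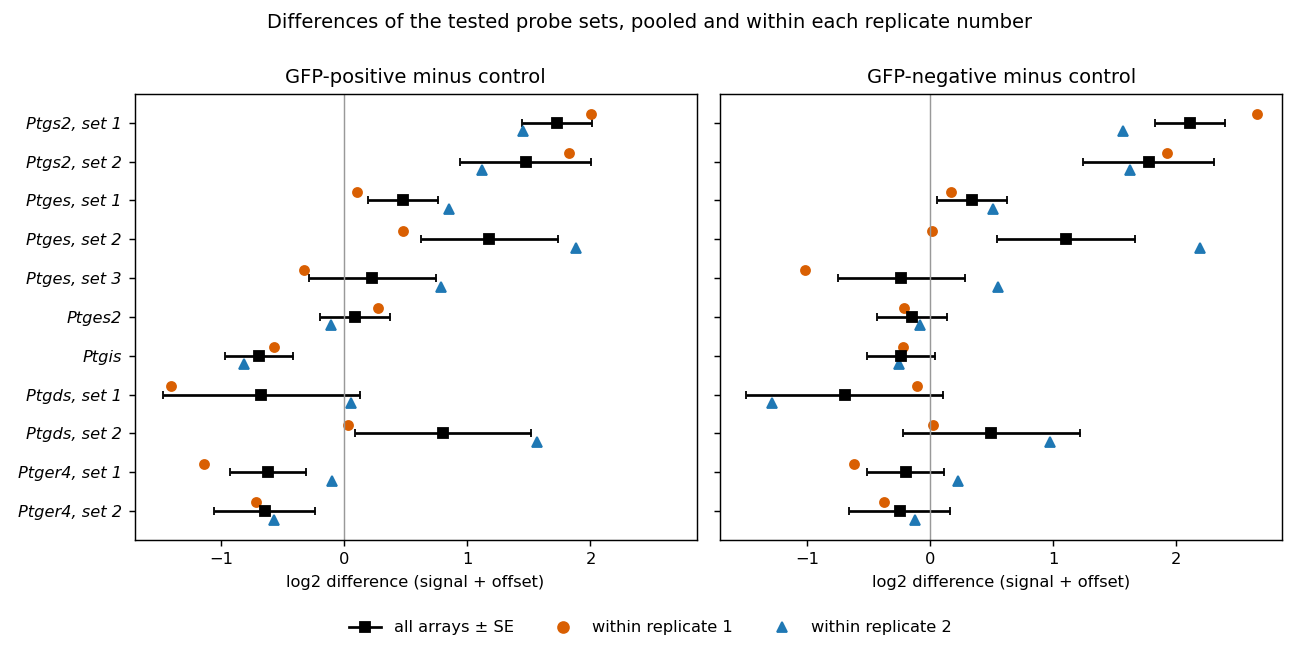
Log2 difference (horizontal axis, signal plus offset) from control of the 11 tested probe sets in GFP-positive cells (left) and GFP-negative cells (right). Squares with bars show the pooled value ± SE, circles the value within replicate 1 and triangles within replicate 2, and probe sets of a gene are numbered from the brightest. Both Ptgs2 probe sets lie at 1.12 or above in every comparison, while those of Ptges and Ptgds differ among themselves.

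Of the 14 probe sets 11, covering 6 genes, were bright enough to be tested among 27022 probe sets. With limma and Benjamini-Hochberg adjustment over all of these, 0 of the 11 passed an adjusted p of 0.05 in any of the 3 comparisons, against 0.122% of all tested probe sets in GFP-positive against control, 0.0296% in GFP-negative against control and 0% in GFP-positive against GFP-negative cells. At an unadjusted p under 0.05 there were 3, 2 and 0, against 7.04%, 5.07% and 0.625% of all. With the replicate number as a block 3, 2 and 0 passed, against 6.21%, 3.57% and 0%. These were both Ptgs2 probe sets in either treated group, and Ptgis, lower, in GFP-positive cells. With the block and no mean-variance trend 0 passed in each comparison.

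Groups did not overlap for 5 higher and 3 lower of the 11 in GFP-positive against control cells, against 17.3% and 14.9% of all tested probe sets. In GFP-negative against control cells this held for 3 higher and 1 lower, against 15.1% and 13.5%, and in GFP-positive against GFP-negative cells for 2 higher and 3 lower, against 10.6% and 10%. The sign was the same in both replicate numbers, higher or lower, for 5 and 3 in GFP-positive against control cells (34.6% and 28.5% of all). It was so for 5 and 4 in GFP-negative against control cells (33.8% and 26.8%) and for 2 and 5 in GFP-positive against GFP-negative cells (26.6% and 27.4%). Medians over the 11 were 0.23, -0.15 and 0.02, beside 0.04, 0.04 and -0.004 over all. Both comparisons with control share the control arrays, so their values are not separate evidence.

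Genes whose pattern was most like that of Ptgs2 were looked for over the 6 arrays by Pearson's r of log2 signal centred within each replicate number. The highest were Tgfb2, a transforming growth factor (r = 0.999), the atypical protein kinase C Prkci (0.998), 4933404K13Rik (0.998), Rell1 (0.997) and Selenoi (0.997). Tgfb2 read 1068 and 769.8 in GFP-positive, 1256 and 830.4 in GFP-negative, and 601.5 and 513.7 in control cells, at 0.68 and 0.84 from control. Prkci was at 0.26 and 0.31, so likeness of pattern did not mean likeness of size. With so few arrays 51 of 23443 probe sets compared had an r over 0.99, and these coefficients are descriptions only.

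The rest of the pathway was read from 7 lists of other genes, each at its brightest probe set: 103 genes, of which 94 had a probe set and 73 were bright enough. In GFP-positive against control and in GFP-negative against control cells 0 of 73 passed an adjusted p of 0.05. At an unadjusted p under 0.05 there were 14 and 11, beside 7.04% and 5.07% of all tested probe sets. With the replicate block, GFP-positive cells had 10 higher and 5 lower genes and GFP-negative cells 5 and 4, beside 3.15% and 3.06%, and 1.9% and 1.68%, of all tested probe sets. With the block and no trend 0 passed. In GFP-positive against GFP-negative cells 0 passed in every fit, and 0 had an unadjusted p under 0.05. Values below come from the fit without a block unless stated, and adjusted p-values are those of limma with Benjamini-Hochberg adjustment over all 27022 probe sets.

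Of 12 tested phospholipase genes that can release arachidonic acid, 0 passed with or without the block in either treated group (median 0.29 in GFP-positive and 0.40 in GFP-negative cells). The 3 of smallest p in GFP-positive cells were Pla2g10 at 0.59 ± 0.48, Pla2g12b at 0.93 ± 0.83 and Pla2g4d at 0.71 ± 0.72, with adjusted p-values of 0.975, 0.983 and 0.997. Pla2g10 was at 0.18 without GFP-positive replicate 1. Pla2g12b and Pla2g4d were dim and rested on control replicate 2, without which they were at -0.28 and -0.18.

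Of 4 tested genes of other prostanoid synthases, 1 passed with the block, higher, in GFP-positive cells and 0 in GFP-negative cells. It was Cbr3, a carbonyl reductase, at 1482 and 2003 in GFP-positive, 1429 and 1461 in GFP-negative, and 792.7 and 1310 in control cells. Its difference was 0.74 ± 0.30 for GFP-positive cells (adjusted p = 0.649; blocked fit 0.0367) and 0.49 ± 0.30 in GFP-negative cells. Without control replicate 1 these were 0.39 and 0.14, and without control replicate 2 they were 1.09 and 0.84. Tbxas1, the thromboxane synthase, was at 0.90 ± 0.48 and 0.98 ± 0.48 (0.58 without GFP-negative replicate 1), and Prxl2b, which reduces the cyclooxygenase product to a prostaglandin of the F type, was at -0.58 ± 0.37 and -0.19 ± 0.37. Without control replicate 2 Prxl2b was at -0.11 and 0.28, and without control replicate 1 at -1.05 and -0.66.

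Slco2a1, the carrier that takes prostaglandins into cells for breakdown, was higher in both treated groups. It read 2049 and 2253 in GFP-positive, 1931 and 2846 in GFP-negative, and 1089 and 1231 in control cells, with no overlap of treated and control arrays. The difference for GFP-positive cells was 0.88 ± 0.25, with 0.89 and 0.86 within the replicates (adjusted p = 0.406; blocked fit 0.00823). For GFP-negative cells it was 1.00 ± 0.25, with 0.81 and 1.19 (adjusted p = 0.506; blocked fit 0.00546). Averaged over all probe sets of the gene, the difference for GFP-positive cells was smaller, at 0.59. Slco2a1 was the only one of 7 tested genes of carriers and reductases to pass with the block in either treated group. Abcc4, an exporter of prostaglandins, was at 0.57 ± 0.31 and 0.41 ± 0.31, and Ptgr1, a prostaglandin reductase, at 0.32 ± 0.23 and 0.20 ± 0.23, with adjusted p-values of 0.839 to 1. Abcc4 was at 0.26 in GFP-positive cells without GFP-positive replicate 2, and Ptgr1 at 0.10 and -0.02 without control replicate 1.

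Among 5 tested receptors outside the set, Tbxa2r, the thromboxane receptor, passed with the block in both treated groups, lower. It read 586.8 and 404.7 in GFP-positive, 758 and 461.1 in GFP-negative, and 1244 and 898.2 in control cells. Treated arrays were below both controls, at -1.07 ± 0.34 for GFP-positive cells (-1.05 and -1.09; adjusted p = 0.472, blocked fit 0.0061) and -0.81 ± 0.34 for GFP-negative cells (-0.69 and -0.92; adjusted p = 0.966, blocked fit 0.0363). The second was -0.46 without GFP-negative replicate 2. Ptgfr, the receptor of prostaglandin F, did not pass in either fit but had no treated array within the control range, at 109.3 and 42.5 in GFP-positive, 92.8 and 60.5 in GFP-negative, and 390.6 and 113 in control cells (-1.28 ± 0.66 and -1.21 ± 0.66). Its size rested on the controls, at -0.51 and -0.44 without control replicate 1 and at -2.06 and -1.99 without control replicate 2. Ptgir, the prostacyclin receptor, was at -0.58 ± 0.65 and -0.50 ± 0.65, or at 0.01 and 0.09 without control replicate 1. For GFP-negative cells it was at 0.06 without GFP-negative replicate 2.

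In the lipoxygenase branch, which turns arachidonic acid into leukotrienes instead, 0 of 8 tested genes passed in either fit. Ltc4s, the leukotriene C synthase, read 188.2 and 132.6 in GFP-positive, 178.7 and 137.1 in GFP-negative, and 15.3 and 79.4 in control cells, at 1.41 ± 0.58 and 1.40 ± 0.58 (adjusted p = 0.672 and 0.956). Without control replicate 1 these were 0.78 and 0.77, and without control replicate 2 they were 2.04 and 2.03. Ggt5, which trims leukotrienes, was at -0.53 ± 0.48 and 0.16 ± 0.48, the second of which was -0.31 without control replicate 2 and -0.32 without GFP-negative replicate 1. Ptgr1, given above, also belongs to this branch.

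Genes known to answer to cAMP, the messenger raised through Ptger2 and Ptger4, were mixed. Of 17 tested, 4 higher and 2 lower passed with the block in GFP-positive cells, and 2 and 1 in GFP-negative cells, with medians of 0.12 and 0.21. Ptprn, a membrane protein of secretory vesicles, was at 0.74 ± 0.25 and 0.80 ± 0.25 (adjusted p = 0.0238 and 0.0245 with the block, 0.52 and 0.663 without). Pde3b, a phosphodiesterase that breaks down cAMP, was at -0.74 ± 0.24 and -0.82 ± 0.24 (0.0258 and 0.0231 with the block, 0.481 and 0.609 without). Atf3, a stress-induced transcription factor, was at 1.82 ± 0.62 in GFP-positive cells (0.0324 with the block, 0.524 without) and at 1.43 ± 0.62 in GFP-negative cells, where replicate 1 showed 2.44 and replicate 2 showed 0.43. Leaving out GFP-negative replicate 1 gave 0.36 there and leaving out GFP-negative replicate 2 gave 2.51.

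Genes known to act on Ptgs2 transcription or on the stability of its mRNA also went both ways. Of 21 tested, 4 higher and 2 lower passed with the block in GFP-positive cells, and 2 and 2 in GFP-negative cells, with medians of 0.14 and 0.08. Nfkbia, the inhibitor and target of NF-κB, read 5979 and 7553 in GFP-positive, 6057 and 5528 in GFP-negative, and 2887 and 2897 in control cells. Its difference was 1.21 ± 0.21 for GFP-positive cells (adjusted p = 0.119; blocked fit 0.000571) and 0.99 ± 0.21 for GFP-negative cells (adjusted p = 0.323; blocked fit 0.00312). Cebpd, a transcription factor that can bind the Ptgs2 promoter, read 566.3 and 955.9 in GFP-positive, 700.8 and 1311 in GFP-negative, and 2671 and 2148 in control cells. Its differences were -1.66 ± 0.37 (adjusted p = 0.237, blocked fit 0.00279) and -1.29 ± 0.37 (adjusted p = 0.586, blocked fit 0.0161). The second was -0.86 without GFP-negative replicate 1. Averaged over all probe sets of the gene, these differences were smaller, at -1.17 and -1.14. Zfp36l1, which destabilises mRNAs with AU-rich elements, was at -0.99 ± 0.25 and -0.68 ± 0.25 (0.00447 and 0.0436 with the block, 0.311 and 0.807 without), the second being -0.41 without control replicate 1. Its relative Zfp36 went the other way, at 0.70 ± 0.50 and 0.73 ± 0.50 (0.0423 and 0.0491 with the block). Without the block Zfp36 did not pass, and its treated and control arrays overlapped.

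**Figure D4:**
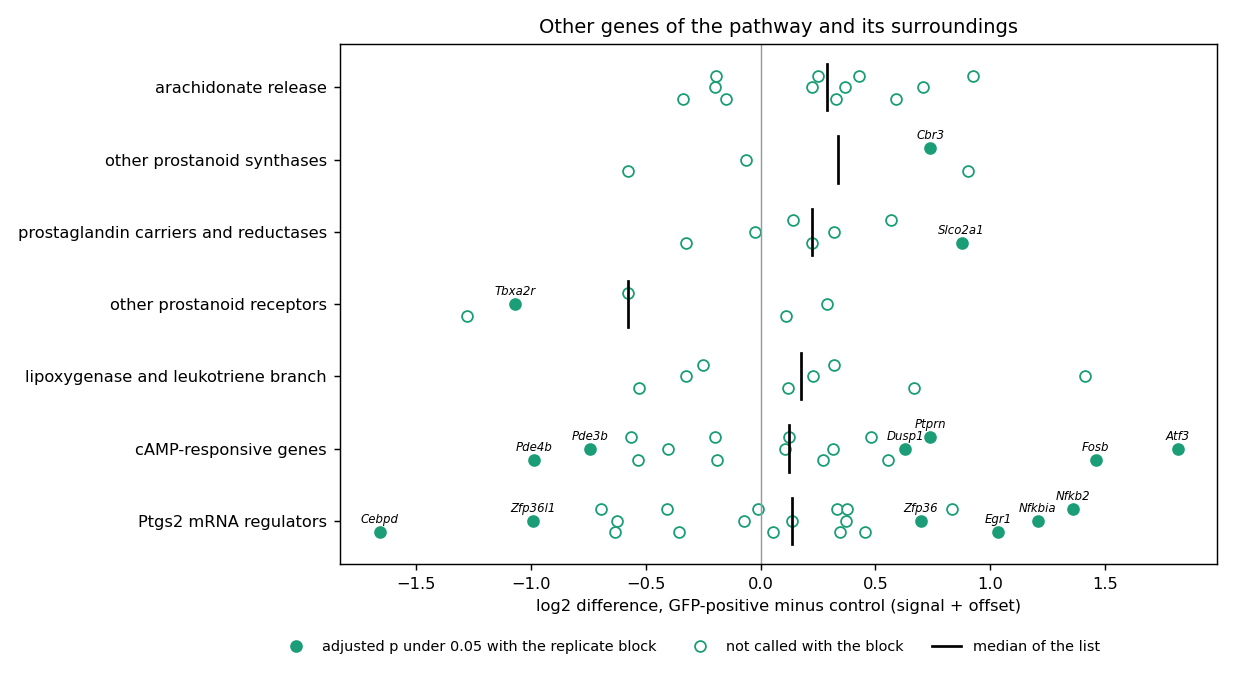
Log2 difference of GFP-positive minus control cells (horizontal axis, signal plus offset) of the tested genes of 7 lists, 1 circle per gene at its brightest probe set, spread vertically within a list for legibility. Filled and named circles passed an adjusted p of 0.05 with the replicate block, open circles did not, and black bars mark the list medians. Filled circles lie on both sides of 0 in the lists of cAMP-responsive genes and of Ptgs2 mRNA regulators, and without the block no gene passed.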

How the data were processed

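Affymetrix mouse 430 2.0 arrays of 6 samples were used. The authors deposited a linear signal intensity for every probe set, from MAS5 according to the submitters' processing notes, with no version or settings named. Trimmed means (2%) differed by more than 10% between arrays, so all were brought to 500. Of 45101 probe sets 64 controls were left out; of the rest 34945 had 1 gene symbol, 932 several and 9160 none. Symbols came from the platform annotation, updated by gene identifier. Before log2 an offset of 30.64 was added, taken as the median of the arrays' 25th percentiles, and probe sets with a mean signal at or above the 40th percentile (67.71) were kept, 27022 in all.

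Groups were compared in R 4.3.3 with limma 3.58.1 (lmFit on the 6 arrays together, eBayes with trend, two-sided tests, 3 residual degrees of freedom, Benjamini-Hochberg over all kept probe sets, adjusted p under 0.05 called), which was tested on simulated data. The simulated data had the same spread for every probe set, large differences and no shift between replicate numbers. They therefore say nothing on smaller differences or on such a shift in these arrays. The members, lists and tests were chosen with earlier results of these data known. Named genes were all members, and for each list genes called in any comparison and the 3 of smallest p in GFP-positive against control cells. Zfp36 was named in addition. Ptgr1 is in 2 lists and is counted once among the 103 genes, whose older and newer symbols are listed apart. Alternatives were the replicate block, other scalings, offsets, filters, thresholds and probe set choices, no trend, only the groups compared, and leaving out arrays. The replicates are not said to be separate animals, so p-values measure only the spread between these samples. The replicate numbers are not stated to pair samples, and the fit without a block leads for that reason.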

Additional observations from a re-analysis of the deposited data

How the results depend on the processing

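Without the block 0 prostaglandin probe sets and 0 other pathway genes were called in each of the 3 comparisons. With the replicate number as a block 3 and 2 prostaglandin probe sets and 15 and 9 other pathway genes were called in GFP-positive and in GFP-negative against control cells. At an adjusted p under 0.1, 1 Ptgs2 probe set was called in GFP-negative cells. Without both rescaled arrays, chosen after seeing the data, 1 Ptgs2 probe set was called in GFP-negative cells and 1 other gene, Cebpd, in GFP-positive cells. Leaving out any 1 array gave 0 in all. With the block and no trend, also chosen after seeing the data, 0 were called. The cause was not tested. The labels give numbers without saying that a number marks a shared animal or day; deviations of same-numbered arrays from their group means correlated at 0.506 to 0.556 over the tested probe sets.

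Over all probe sets 33 and 8 were called in the comparisons with control, but 1679 and 966 with the block, 0 and 0 without the trend, 8 and 0 with the block and no trend, 51 and 22 with median centring, 62 and 49 without both rescaled arrays, 0 to 35 and 0 to 6 without 1 array, 78 and 25 at the looser threshold, and 9 and 4 over genes. In GFP-negative cells a smaller offset, a stricter filter or only the groups compared each gave 3, and leaving out probe sets that bind related transcripts gave 5.

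Ptgs2 was at 1.37 to 2.10 in GFP-positive and 1.75 to 2.47 in GFP-negative cells over all alternatives; Ptgis in GFP-positive cells was at -0.96 to -0.43. Signs turned when 1 array was left out for Ggt5 (-0.32 to 0.64), Pla2g10 (-0.31 to 0.18), Prxl2b (-0.66 to 0.28), Ptgir (-1.09 to 0.094), Ptgr1 (-0.021 to 0.41) and Pla2g12b (-0.53 to 1.89) in GFP-negative cells, and for Pla2g12b (-0.28 to 2.14), Pla2g4d (-0.18 to 1.59) and Ptgir (-1.17 to 0.014) in GFP-positive cells. Among the prostaglandin genes signs turned likewise for Ptgds (-1.82 to 0.43), Ptger4 (-0.415 to 0.017) and Ptgis (-0.5 to 0.027) in GFP-negative cells. In GFP-positive cells this held for Ptges2 (-0.072 to 0.24). Without both rescaled arrays Pla2g10 was at 0.015 and Ptgir at 0.055 in GFP-negative cells.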
